A study of Mus musculus with 18 samples.

Results

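The 9 genes described here are the liver X receptors (LXR) Nr1h3 and Nr1h2, the cholesterol exporters Abca1 and Abcg1, and 5 lipid-handling genes, Apoe, Pltp, Mylip, Lpcat3 and Soat1. They were chosen by gene symbol as members of the pathway, and all 9 are among the 16474 genes of the deposited table. RNA was sequenced from macrophages grown out of the bone marrow of C57BL/6 mice aged 8 weeks, in 18 libraries that form 6 groups of 3. The p110g-/- groups lack p110g, the catalytic subunit of a class I phosphoinositide 3-kinase encoded by Pik3cg, and the wild-type (WT) groups are of the same strain. All cells were differentiated for 6 days with 50 ng/ml M-CSF, the macrophage growth factor, and all 6 groups then kept 20 ng/ml M-CSF. For each genotype, 1 group received IFNg and 100 ng/ml LPS for 24 h, 1 group received IL-4 at 20 ng/ml and was kept for 48 h, and 1 group stayed in M-CSF alone for 24 h. IL-4 treatment and the longer culture cannot be told apart. The labels number the libraries 1 to 3 in every group and do not say whether the numbers stand for separate animals, so every p-value here is set against the scatter among these libraries alone, which may be technical.

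LXRs are nuclear receptors that bind oxysterols and desmosterol and act as heterodimers with retinoid X receptors (RXR). When cholesterol builds up in a macrophage, they switch on genes that move it out of the cell, among them Abca1, Abcg1 and Apoe, and Mylip, which lowers uptake through the LDL receptor. Both receptors are found in macrophages, where they are also known to restrain inflammatory genes, and stimulation through Toll-like receptors is known to lower LXR target genes.

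LXR and RXR together bind a DR4 element, which is 2 copies of AGGTCA with 4 bases between them. The stretch of the Abca1 promoter that comes closest to this pattern is shown because Abca1 is the best-known target of the group, and in human cells the ABCA1 promoter is known to carry such an element. It lies at chr4:53159940-53159969 on the minus strand, at positions -74 to -45 from the transcription start, and the capitals mark the 16 bases of the match, which reads as a DR4 on the opposite strand.
Abca1: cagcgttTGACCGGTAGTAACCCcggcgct
The match has the pattern's base at 9 of its 12 fixed positions (3 mismatches), and a match with at most 3 mismatches is held by 21.9% of the 32851 promoter windows of the same length. The closest matches in the windows of the other members had 4 or 5 mismatches, and 76.9% of all windows hold a match with at most 4. A stretch of the Nr1h2 promoter is shown because the promoter windows of the 2 receptors differ in the number of CCGGAA. The stretch was picked after the counts of the 5 patterns searched were seen, and any link to the receptors' levels was not tested. It lies at chr7:44553969-44554105 on the minus strand, at positions -140 to -4 from the start, and its capitals mark CCGGAA on either strand, letters found in binding sites of ETS factors, with overlapping copies counted separately.
Nr1h2: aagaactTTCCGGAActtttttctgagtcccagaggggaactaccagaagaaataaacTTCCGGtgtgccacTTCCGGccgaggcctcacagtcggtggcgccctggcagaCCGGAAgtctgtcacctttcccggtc
This stretch holds 5 of the 8 copies in its promoter window, a number reached by 2 of the 32851 windows (0.00609%), its own included. The pattern and the gene were picked from the same search, so this share is no test. The Nr1h3 windows hold 1 copy, and 14.9% of all windows hold at least 1. The pattern TTCNNNNGAA, the letters of STAT6 sites read on both strands, was found in no member window, against 6.95% of all windows. The pattern TATAAA was found in the Abca1, Mylip and Pltp windows and in 1 Apoe window, and in 13.6% of all windows. Sequences are from RefSeq on GRCm38.p6 and windows run from 250 bases before to 50 bases after a start; 8 of the 9 members had a window, and Abcg1 had none. A match is a description of these letters, and the data do not show binding.

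The deposited signal is a normalised read count, and the 18 libraries held 40081565 to 69602665 reads. The lowest signal of any member was 1126.7, which was 962 reads, so counting error is small beside the spread between libraries. Signal is not divided by gene length, and levels are therefore compared between groups and not between genes. Pik3cg, the targeted gene, had 955.6, 1083 and 965 in p110g-/- IL-4 libraries, against 3068, 2953 and 3281 in WT IL-4 libraries, and 1888, 2046 and 1966 in p110g-/- M-CSF libraries, against 5308, 5330 and 4994 in WT M-CSF libraries. In IFNg/LPS it had 3691, 1411 and 2037 in p110g-/- libraries, against 3559.5, 2309 and 2604 in WT libraries. These ranges overlap, and the fold change was -0.34 on the log2 scale (SE 0.23, adjusted p = 0.374). With all libraries included, the targeted gene does not separate the genotypes under this stimulus. With the libraries numbered 1 left out of every group, the Pik3cg fold change was -0.53 and passed the limma test (adjusted p = 0.0227). Which part of Pik3cg was deleted is not given in the sources used here. Macrophage markers were abundant, with 6 of 7 in the table and a summed signal of 446014 to 1018700 in every library. Markers of other cells summed to at most 25822 for neutrophils (7 of 7 in the table), 3247 for fibroblasts (4 of 4), 1007 for dendritic cells (4 of 4), 435.7 for B cells (3 of 3), 231.2 for mast cells (3 of 3) and 36.1 for T and NK cells (2 of 4). Osteoclast markers (2 of 4) summed to 1845 to 12406, and for adipocytes and erythroid cells 1 of 3 and 0 of 3 markers were analysed here. RNA was taken from whole cultures, so fewer cells of a type and less RNA per cell cannot be told apart.

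**Figure D1:**
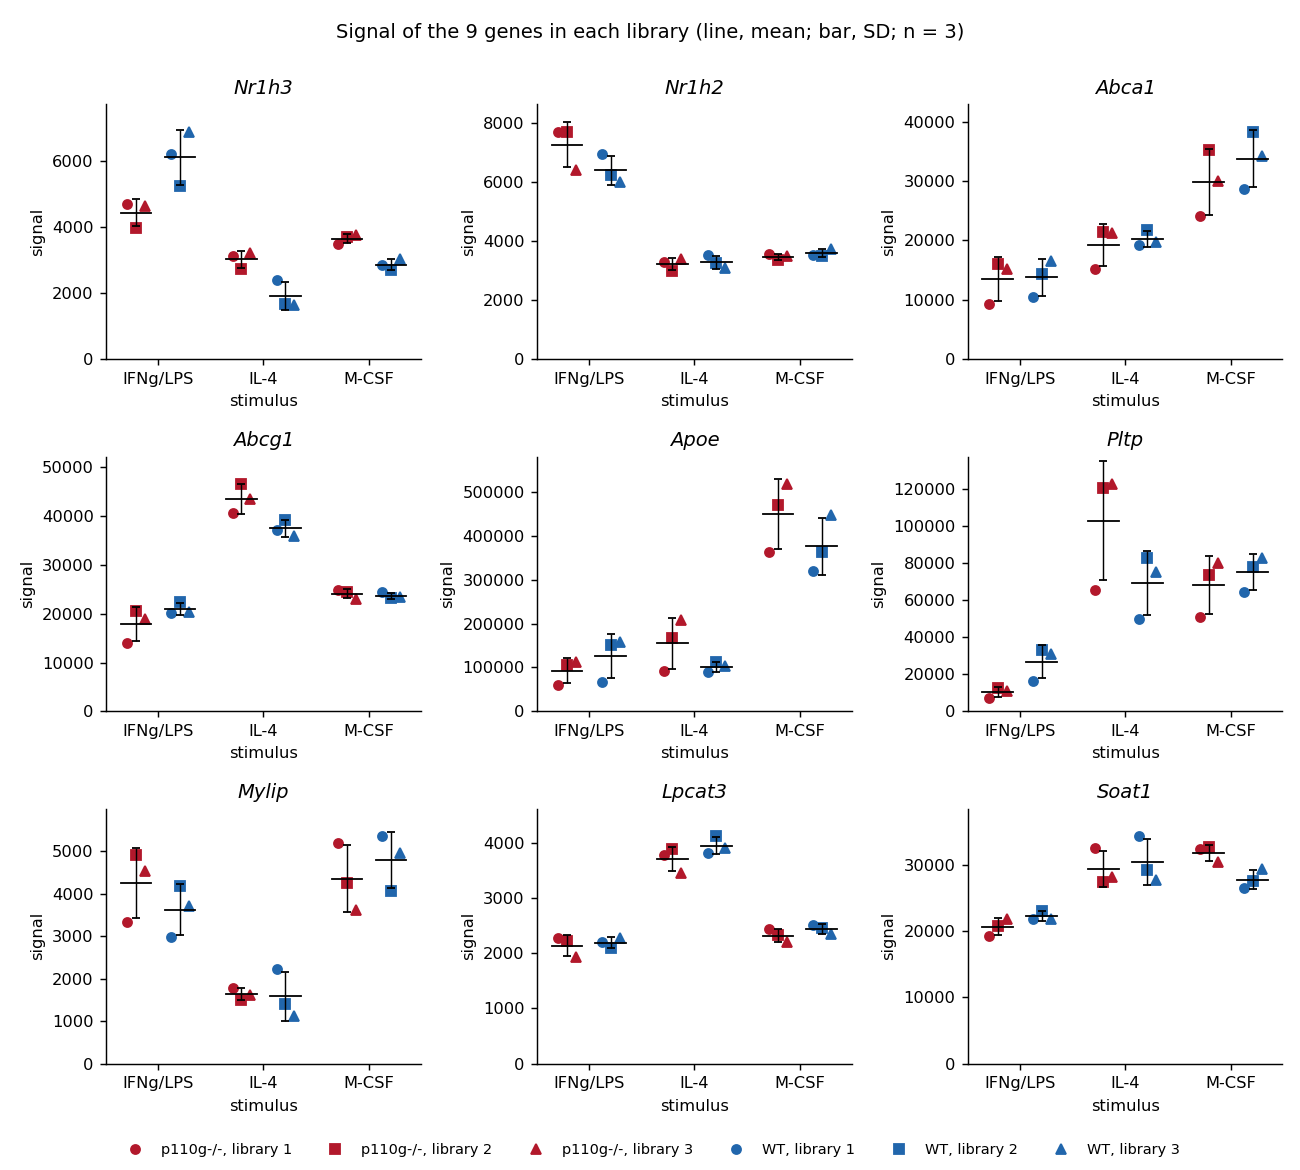
Signal (normalised read count, vertical axes from 0) of the 9 genes in each of the 18 libraries, by stimulus, with p110g-/- (red) left of WT (blue); marker shapes give the library number, lines the mean and bars the SD of 3 libraries. Nr1h3 in p110g-/- libraries lies below WT in IFNg/LPS and above WT in IL-4, and Pltp is lowest in the p110g-/- IFNg/LPS libraries, between 7413 and 12795.

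Few of the 9 genes differed between the genotypes, and Nr1h3 differed in opposite directions under the inflammatory and the IL-4 stimulus. In IFNg/LPS, Pltp fell 2.53-fold and Nr1h3 fell 1.37-fold in p110g-/- macrophages. In IL-4, Nr1h3 rose 1.60-fold in p110g-/- macrophages. In M-CSF alone no member passed the test. None of the calls for Pltp and Nr1h3 held under every alternative setting described below. With only the compared groups in the fit, limma's adjusted p was 0.0602 for Pltp and 0.083 for Nr1h3 in IFNg/LPS. For Nr1h3 in IL-4 it was 0.0619. A member is called when its Benjamini-Hochberg adjusted p from limma, taken over all 15627 genes tested, is under 0.05, and all 9 members were tested.

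In IFNg/LPS, 2 of the 9 were called lower and 0 were called higher in p110g-/- than in WT, where 7.79% and 6.94% of all genes were called lower and higher. In IL-4, 1 of the 9 was called higher and 0 lower, against 1.34% and 1.99% of all genes. In M-CSF limma called 0 of the 9, beside 2.34% of all genes called in either direction; 2 members had an unadjusted p under 0.05, and edgeR and DESeq2 on recovered reads also called 0. With the 3 stimuli averaged, limma called 0 of the 9 beside 11.8% of all genes, 1 member had an unadjusted p under 0.05, and edgeR and DESeq2 called 0; without WT IL-4 library 1 the averaged Nr1h3 difference was 0.25 and passed (adjusted p = 0.0115). The median log2 fold change of the 9 was -0.11 in IFNg/LPS, 0.10 in IL-4 and -0.05 in M-CSF, beside medians over all genes of 0.00056, -0.0034 and -0.00087.

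**Figure D2:**
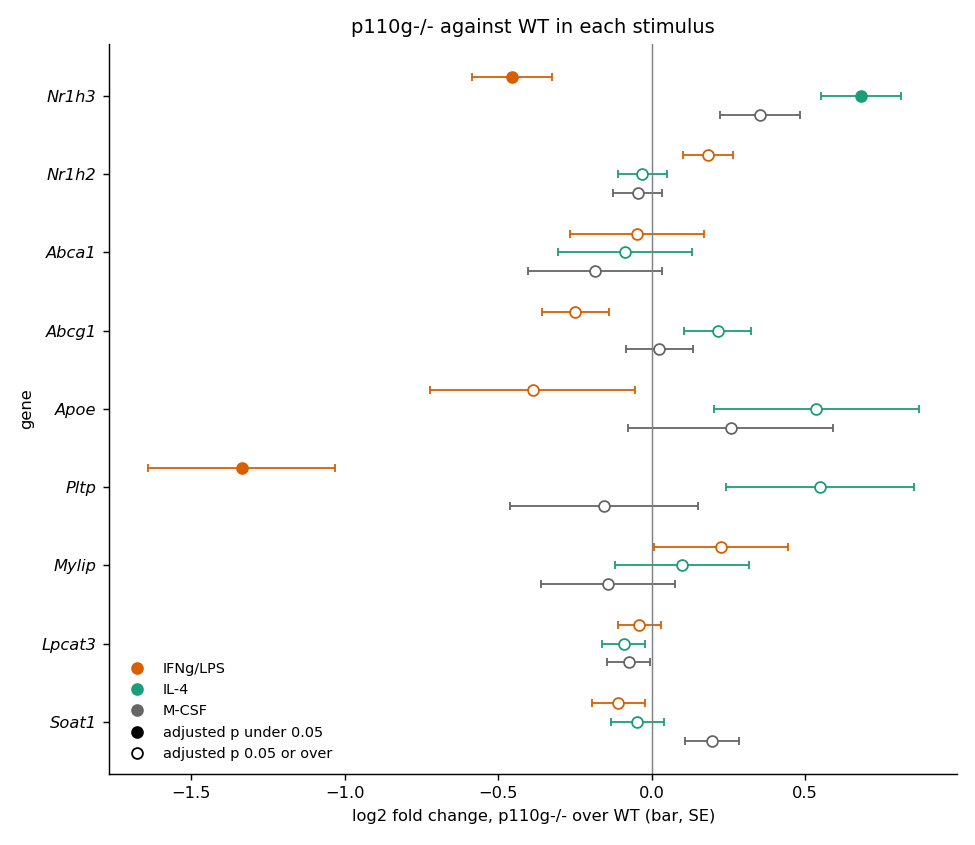
Log2 fold change of p110g-/- over WT for each gene in IFNg/LPS, IL-4 and M-CSF (bar, SE from limma over 18 libraries; filled, adjusted p under 0.05). The filled points are Pltp and Nr1h3 in IFNg/LPS, at -1.34 and -0.46, and Nr1h3 in IL-4, at 0.68.

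Nr1h3 (gene ID 22259) encodes LXRa, the receptor whose own gene is an LXR target in human macrophages. In IFNg/LPS its signal was 4681, 3964 and 4636 in p110g-/- libraries, against 6193, 5228 and 6871 in WT libraries. Every p110g-/- library was below every WT library, and the log2 fold change was -0.46 (SE 0.13, adjusted p = 0.0282). In IL-4 it was 3119, 2724 and 3209 in p110g-/- libraries, against 2398, 1677 and 1641 in WT libraries. Here each p110g-/- library was above each WT library, and Nr1h3 rose by 0.68 on the log2 scale (SE 0.13, adjusted p = 0.0073). In M-CSF it was 3485, 3693 and 3747 in p110g-/- libraries, against 2851.5, 2681 and 3035 in WT libraries. These ranges did not overlap either, but the log2 fold change of 0.35 (SE 0.13) had an adjusted p of 0.23.

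The genotype difference of Nr1h3 in IFNg/LPS also differed from that in M-CSF. This interaction was -0.81 on the log2 scale (SE 0.18, adjusted p = 0.0318), and Nr1h3 was the 1 member called among 9, lower, while 0 were called higher; of all genes 1.42% and 1.02% were called lower and higher. The interaction with IL-4 was 0.33 (SE 0.18, adjusted p = 0.762), and both interactions share the M-CSF libraries. The direct difference between the genotype effects in IFNg/LPS and in IL-4 was not tested. The IFNg/LPS call was lost when WT IFNg/LPS library 1 (adjusted p = 0.0554) or 3 (0.117) or p110g-/- IFNg/LPS library 2 (0.124) was left out, and the IL-4 call when WT IL-4 library 2 (0.0502) or 3 (0.0542) was left out. The IFNg/LPS call and the interaction were also lost under quantile normalization (-0.38, adjusted p = 0.0798, and -0.75, adjusted p = 0.0569). The interaction was lost without any 1 of WT M-CSF libraries 1, 2 and 3, WT IFNg/LPS library 3, p110g-/- M-CSF libraries 2 and 3 and p110g-/- IFNg/LPS library 2, with adjusted p of 0.0531 to 0.0824. With only the libraries of the groups compared in the fit, the adjusted p became 0.083 in IFNg/LPS, 0.0619 in IL-4 and 0.0424 in M-CSF. The library numbers pair the genotypes in IFNg/LPS, and with the number as a block in limma that difference kept its call (adjusted p = 0.0108).

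Against M-CSF, Nr1h3 rose 2.12-fold with IFNg/LPS in WT macrophages, by 1.09 on the log2 scale (SE 0.13, adjusted p = 1.67e-06). In p110g-/- macrophages the same comparison gave 0.28 (SE 0.13, adjusted p = 0.0665), with the lowest IFNg/LPS library above the highest M-CSF library; without p110g-/- IFNg/LPS library 2 it was 0.36 and passed (adjusted p = 0.0382). It also passed in a fit of the compared groups alone (adjusted p = 0.0199), and under quantile normalization it was 0.09 (adjusted p = 0.57). The WT rise was 0.84 under quantile normalization and kept its call. With IL-4, Nr1h3 fell 1.52-fold in WT macrophages, by 0.60 on the log2 scale (SE 0.13, adjusted p = 0.00161). In p110g-/- macrophages the IL-4 value was -0.27 (SE 0.13, adjusted p = 0.101), with ranges that did not overlap, and it passed in a fit of the compared groups alone (adjusted p = 0.0187). The order of group means ran from WT IFNg/LPS (6098 ± 826, SD) through p110g-/- IFNg/LPS (4427 ± 402), p110g-/- M-CSF (3642 ± 138), p110g-/- IL-4 (3017 ± 258) and WT M-CSF (2856 ± 177) to WT IL-4 (1905 ± 427), and of these neighbours p110g-/- IL-4 and WT M-CSF overlapped.

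Nr1h2 (gene ID 22260) encodes LXRb, the receptor expressed in most tissues. Its signal was 7716, 7709 and 6411 in p110g-/- IFNg/LPS libraries, against 3569, 3370.3 and 3486 in p110g-/- M-CSF libraries, a rise of 1.06 on the log2 scale (SE 0.08, adjusted p = 9.03e-09). In WT macrophages it was 6945, 6262 and 5999.7 with IFNg/LPS, against 3526, 3502 and 3741 with M-CSF, a rise of 0.83 (SE 0.08, adjusted p = 1.48e-07). All 6 IFNg/LPS libraries lay above all 12 others. Under quantile normalization the rises were smaller, 0.82 in p110g-/- and 0.56 in WT macrophages, and both kept their call. The IL-4 responses were -0.11 in p110g-/- and -0.13 in WT macrophages (SE 0.08 each), with adjusted p of 0.283 and 0.219. The genotype differences were 0.18 in IFNg/LPS, -0.03 in IL-4 and -0.05 in M-CSF, none of which passed the test (adjusted p = 0.146, 0.923 and 0.908). Without p110g-/- IFNg/LPS library 3 the first was 0.27 and passed (adjusted p = 0.0335).

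Nr1h2 was not called between genotypes in any stimulus, and Nr1h3 signal alone separated the genotypes in all 3. The ratio of Nr1h3 to Nr1h2 signal within a library also did so. It was 0.607, 0.514 and 0.723 in p110g-/- IFNg/LPS libraries, against 0.892, 0.835 and 1.145 in WT. It was 0.946, 0.913 and 0.949 in p110g-/- IL-4 libraries, against 0.680, 0.514 and 0.532 in WT. In M-CSF it was 0.977, 1.096 and 1.075 in p110g-/- libraries, against 0.809, 0.766 and 0.811 in WT. The ratio is not corrected for length and is read between groups only; it was chosen after the values were seen and has no test.

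Both inflammatory and IL-4 stimulation lowered Abca1 (gene ID 11303), which loads cholesterol onto lipid-poor apolipoprotein A-I, and IL-4 raised Abcg1 (gene ID 11307), which exports cholesterol to HDL. Abca1 signal was 9238, 15986 and 15177 in p110g-/- IFNg/LPS libraries and 15147, 21415 and 21164 in p110g-/- IL-4 libraries, against 24164, 35254 and 30015 in p110g-/- M-CSF libraries. In WT it was 10382, 14379.8 and 16598 with IFNg/LPS and 19184, 21787 and 19662 with IL-4, against 28718, 38296 and 34123 with M-CSF. All stimulated libraries of a genotype were below its M-CSF libraries. With IFNg/LPS, Abca1 fell 2.25-fold in p110g-/- macrophages (log2 -1.17, SE 0.22, adjusted p = 0.000161) and 2.47-fold in WT macrophages (log2 -1.31, SE 0.22, adjusted p = 5.47e-05; -1.96 under quantile normalization). With IL-4 it fell 1.55-fold in p110g-/- (adjusted p = 0.0277) and 1.66-fold in WT macrophages (adjusted p = 0.013). The IL-4 call in p110g-/- was lost without p110g-/- M-CSF library 2 (adjusted p = 0.113) or 3 (0.0664) or p110g-/- IL-4 library 1 (0.125), and that in WT without WT M-CSF library 2 (0.0529). Between genotypes the log2 differences of Abca1 were -0.05 in IFNg/LPS, -0.09 in IL-4 and -0.18 in M-CSF (SE 0.22 each; adjusted p = 0.917, 0.919 and 0.832).

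Abcg1 signal was 40512, 46540.4 and 43440.3 in p110g-/- IL-4 libraries, against 24897, 24409 and 23040.0 in p110g-/- M-CSF libraries. In WT it was 37181, 39237 and 35931 with IL-4, against 24373, 23280.2 and 23422 with M-CSF. The IL-4 libraries were above all M-CSF libraries in each genotype, and Abcg1 rose by 0.85 on the log2 scale in p110g-/- (SE 0.11, adjusted p = 1.72e-05) and by 0.66 in WT macrophages (SE 0.11, adjusted p = 0.000193). With IFNg/LPS it was 13989, 20641 and 18856 in p110g-/- libraries and 20097, 22395 and 20327 in WT libraries. It fell 1.37-fold against M-CSF in p110g-/- macrophages (log2 -0.45, SE 0.11, adjusted p = 0.00149), and the WT value was -0.18 (SE 0.11, adjusted p = 0.149). Under quantile normalization these IFNg/LPS values became -1.03 in p110g-/- and -0.88 in WT macrophages, and the WT value passed the test (adjusted p = 2.15e-06). The difference between the genotypes in this response was -0.27 (SE 0.15, adjusted p = 0.392). In IFNg/LPS Abcg1 differed by -0.25 between genotypes (SE 0.11, adjusted p = 0.141), which passed the test without p110g-/- IFNg/LPS library 2 (-0.36, adjusted p = 0.0446). Without p110g-/- IFNg/LPS library 1, the lowest of the 6, it was -0.08 (adjusted p = 0.518), and under quantile normalization -0.13 (adjusted p = 0.474). In IL-4 every p110g-/- library was above every WT library, but the log2 difference of 0.21 (SE 0.11) had an adjusted p of 0.391; it was 0.26 with the libraries numbered 1 left out (adjusted p = 0.0358).

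Apoe (gene ID 11816), the secreted apolipoprotein that carries cholesterol away from macrophages, fell under both stimuli. Its signal was 60681, 106067 and 111626 in p110g-/- IFNg/LPS libraries and 91156, 166317 and 207316 in p110g-/- IL-4 libraries, against 362905, 469857 and 518027 in p110g-/- M-CSF libraries. In WT it was 67836, 151001 and 157289 with IFNg/LPS and 90056, 111435 and 102589 with IL-4, against 319182.5, 362737 and 447333 with M-CSF. No stimulated library reached the lowest M-CSF library. With IFNg/LPS the fall was 4.97-fold in p110g-/- (log2 -2.31, SE 0.33, adjusted p = 1.26e-05) and 3.18-fold in WT macrophages (log2 -1.67, SE 0.33, adjusted p = 0.000312; -2.35 under quantile normalization). With IL-4 it was 3.04-fold in p110g-/- (adjusted p = 0.00116) and 3.69-fold in WT macrophages (adjusted p = 0.000342). The genotype differences of Apoe, -0.39 in IFNg/LPS, 0.54 in IL-4 and 0.26 in M-CSF (SE 0.33 each), did not pass the test (adjusted p = 0.484, 0.515 and 0.857). With all libraries numbered 1 left out, those in IFNg/LPS and IL-4 were -0.50 and 0.80 and passed (adjusted p = 0.00705 and 0.00068).

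Pltp (gene ID 18830), the phospholipid transfer protein that remodels lipoproteins, showed the largest genotype difference of the 9 in any stimulus. In IFNg/LPS its signal was 7413, 12795 and 11036 in p110g-/- libraries, against 16504, 33195 and 30783 in WT libraries. The highest p110g-/- library was below the lowest WT library, and the log2 fold change was -1.34 (SE 0.31, adjusted p = 0.00825). By library number the difference was -1.15, -1.38 and -1.48 on the log2 scale, its sign being fixed by ranges that do not overlap. In IL-4 it was 65637, 120335 and 122474 in p110g-/- libraries, against 49915, 82434 and 75278 in WT libraries, which overlap (difference 0.55, SE 0.31, adjusted p = 0.454). In M-CSF it was 50625, 73598 and 80049 in p110g-/- libraries, against 64164, 77598 and 82864 in WT libraries, which also overlap (log2 -0.16, SE 0.31, adjusted p = 0.926). The interaction with IFNg/LPS was -1.18 (SE 0.43, adjusted p = 0.165). With only the IFNg/LPS libraries in the fit the adjusted p of the IFNg/LPS difference was 0.0602. With the library number as a block in limma, which pairs the genotypes in IFNg/LPS, it was 6.05e-06. With the libraries numbered 1 left out of every group, the interaction was -1.36 (adjusted p = 5.32e-05) and the IL-4 difference 0.62 (adjusted p = 0.000415).

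With IFNg/LPS against M-CSF, Pltp fell 6.58-fold in p110g-/- macrophages (log2 -2.72, SE 0.31, adjusted p = 8.23e-07) and 2.90-fold in WT macrophages (log2 -1.54, SE 0.31, adjusted p = 0.000296; -2.33 under quantile normalization). With IL-4 it was 0.57 in p110g-/- macrophages (SE 0.31, adjusted p = 0.148) and -0.14 in WT macrophages (SE 0.31, adjusted p = 0.748). The library numbers pair these IL-4 and M-CSF libraries, and with the number as a block the p110g-/- value passed the test (adjusted p = 0.00108), as it did without p110g-/- IL-4 library 1 (0.86, adjusted p = 0.0379). Pltp overlaps Ctsa, a lysosomal carboxypeptidase gene, in the GENCODE M21 annotation of GRCm38, and whether reads were counted by strand is not given in the sources used here. In IFNg/LPS, Ctsa had 27933, 40512 and 36857 in p110g-/- libraries, against 36427, 43387 and 40856 in WT libraries, a log2 difference of -0.21 (SE 0.12, adjusted p = 0.261).

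Markers of other cells also differed between the IFNg/LPS genotypes in which Nr1h3 and Pltp were called. The summed macrophage markers were 494133 to 579944 in p110g-/- libraries, against 614964 to 667734 in WT libraries. The neutrophil sum was 987.2 to 1833 in p110g-/- libraries, against 2056 to 3075 in WT libraries, and the mast cell sum 60.7 to 187.3, against 37.3 to 50.3. In IL-4, the mast cell sum was 59.5 to 82.5 in p110g-/- libraries, against 103.1 to 231.2 in WT libraries, and Adipoq, the adipocyte marker analysed here, was 146.4 to 208.4, against 65.9 to 101.2. The ranges of the other lists overlapped between the genotypes in IFNg/LPS and in IL-4. The part of these cells in the results was not tested.

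Mylip (gene ID 218203), the ubiquitin ligase that marks the LDL receptor for breakdown, fell with IL-4 and had no call elsewhere. Its signal was 1778.5, 1512 and 1623 in p110g-/- IL-4 libraries, against 5206, 4258 and 3620.0 in p110g-/- M-CSF libraries. In WT it was 2241, 1408 and 1127 with IL-4, against 5355, 4063.5 and 4967.5 with M-CSF. No IL-4 library overlapped an M-CSF library, and the fall was 2.64-fold in p110g-/- (log2 -1.40, SE 0.22, adjusted p = 0.000102) and 3.12-fold in WT macrophages (log2 -1.64, SE 0.22, adjusted p = 2.69e-05). The IFNg/LPS responses were -0.04 in p110g-/- and -0.41 in WT macrophages (SE 0.22 each; adjusted p = 0.882 and 0.104). The WT value passed under quantile normalization (-0.63, adjusted p = 0.0206) and in a fit of the groups compared alone (adjusted p = 0.0469).

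Lpcat3 (gene ID 14792), the acyltransferase that puts polyunsaturated chains into membrane phospholipids, rose with IL-4 to nearly the same extent in both genotypes. It was 3771, 3883 and 3457 in p110g-/- IL-4 libraries, against 2431, 2323 and 2194 in p110g-/- M-CSF libraries, and 3813, 4114 and 3907 in WT IL-4 libraries, against 2518, 2454 and 2348 in WT M-CSF libraries. The rise was 1.60-fold in p110g-/- (log2 0.68, SE 0.07, adjusted p = 1.82e-06) and 1.62-fold in WT macrophages (log2 0.69, SE 0.07, adjusted p = 1.61e-06). The IFNg/LPS responses were small, -0.12 in p110g-/- (adjusted p = 0.133) and -0.15 in WT macrophages (adjusted p = 0.0551). Under quantile normalization the p110g-/- value was -0.23 and passed the test (adjusted p = 0.00708). The library numbers pair the WT libraries in that comparison, and with the number as a block the WT value passed the test (adjusted p = 0.0364), as it did with TMM scaling, in edgeR, under quantile normalization and without WT IFNg/LPS library 3.

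Soat1 (gene ID 20652) esterifies cholesterol for storage and so works against export. It was 19276, 20839 and 21806 in p110g-/- IFNg/LPS libraries, against 32329.7, 32742 and 30422 in p110g-/- M-CSF libraries, a 1.54-fold fall (log2 -0.63, SE 0.09, adjusted p = 8.36e-06). In WT it was 21767, 23103 and 21869.7 with IFNg/LPS, against 26505, 27507 and 29357 with M-CSF, a 1.25-fold fall (log2 -0.32, SE 0.09, adjusted p = 0.0036). Neither pair of groups overlapped. Under quantile normalization the falls were -1.24 in p110g-/- and -1.06 in WT macrophages. The IL-4 responses of Soat1 were -0.12 in p110g-/- and 0.13 in WT macrophages (SE 0.09 each; adjusted p = 0.291 and 0.257), and the genotype differences were -0.11 in IFNg/LPS, -0.05 in IL-4 and 0.20 in M-CSF (adjusted p = 0.443, 0.881 and 0.341). In M-CSF the Soat1 ranges of the genotypes did not overlap.

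**Figure D3:**
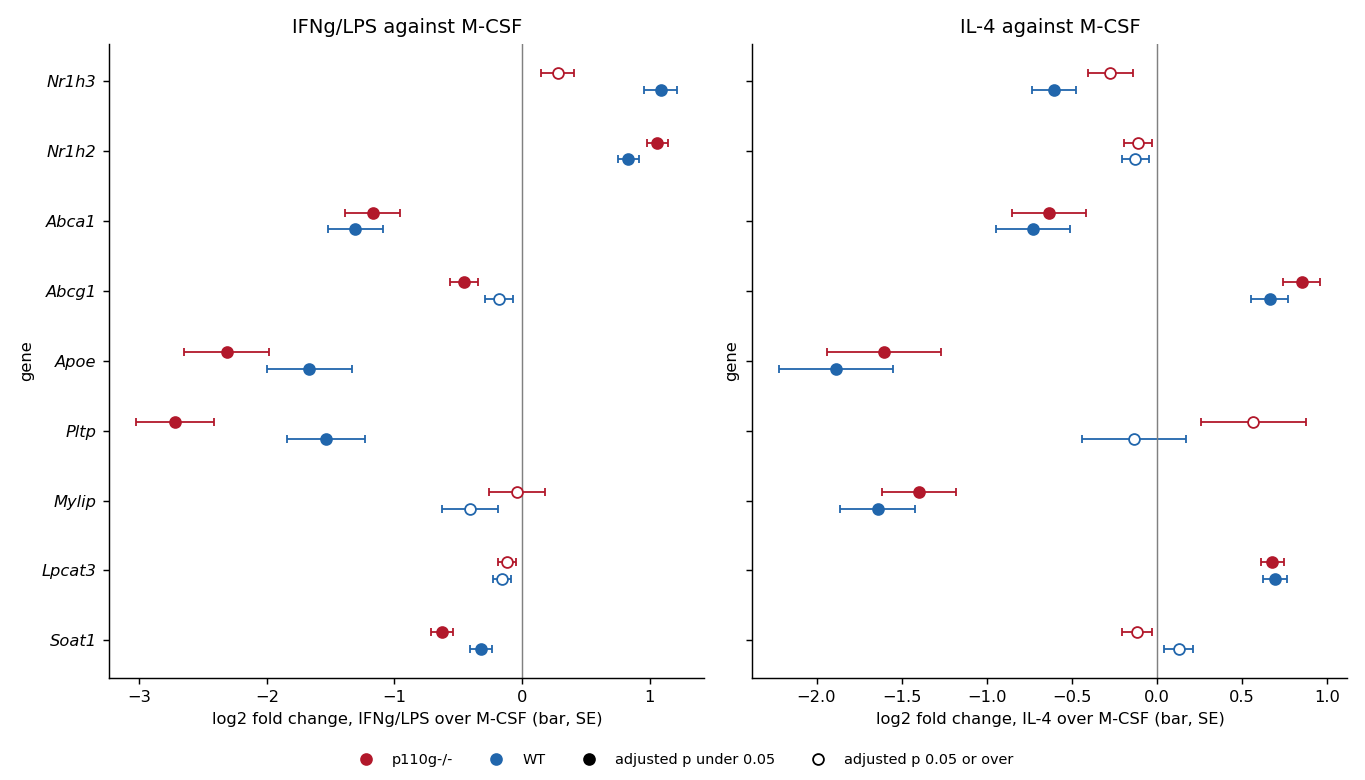
Log2 fold change of IFNg/LPS over M-CSF (left) and of IL-4 over M-CSF (right) in p110g-/- (red) and WT (blue) macrophages (bar, SE from limma; filled, adjusted p under 0.05). Apoe and Abca1 lie below 0 in all 4 comparisons, Nr1h2 is at 1.06 and 0.83 with IFNg/LPS, and Abcg1 and Lpcat3 lie above 0 with IL-4.

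Over the 9 genes, IFNg/LPS lowered 5 and raised 1 in p110g-/- macrophages, where 36.8% and 36.2% of all genes were called lower and higher. In WT macrophages it lowered 4 and raised 2, against 37.5% and 36.3% of all genes. IL-4 lowered 3 and raised 2 in p110g-/- macrophages, against 21.2% and 22.7% of all genes, and lowered 4 and raised 2 in WT macrophages, against 21.1% and 22.9%. Some of these counts lie away from the shares of all genes, but 9 genes are few and the counts were not tested against the shares. Nothing particular to the 9 is read from them. The IFNg/LPS and IL-4 responses of a genotype share its M-CSF libraries. Marker sums of cell types also moved with the stimuli. Macrophage markers summed to 494133 to 667734 in IFNg/LPS libraries and 446014 to 548691 in IL-4 libraries, against 863824 to 1018700 in M-CSF libraries. Neutrophil markers summed to 987.2 to 3075 in IFNg/LPS libraries, against 5378 to 25822 in M-CSF libraries, and dendritic cell markers to 579.6 to 1007, against 149.3 to 232.2. Osteoclast markers summed to 6488 to 12406 in IL-4 libraries, against 1845 to 3411 in M-CSF libraries. These groups did not overlap, and the part of the cell types in the responses was not tested. The dendritic cell sum in IFNg/LPS was mostly Xcr1: over all libraries Xcr1 reached 947.8, while Flt3, Zbtb46 and Siglech reached 72.4, 88.2 and 74.7. In the macrophage sum Lyz2 was the largest part, at 208234.5 to 650391.5 over all libraries. The responses to IL-4 did not differ between genotypes for any of the 9 by limma's interaction test: 0 were called, 0 had an unadjusted p under 0.05, and edgeR and DESeq2 called 0. The same test called 0.0% of all genes, with 1156 at an unadjusted p under 0.05, 0 called by edgeR, and 26 higher and 51 lower called by DESeq2.

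Within groups, Abca1, Apoe and Pltp varied together. The library numbered 1 was the lowest of its group in 6 of 6 groups for each of these 3 genes, and it differed from the others by a median over groups of -0.46 for Abca1, -0.64 for Apoe and -0.67 for Pltp on the log2 scale. For the other 6 genes it was the lowest in 0 to 3 of the 6 groups. Over the deviations of the 18 libraries from their group means, Pearson's r was 0.934 between Apoe and Pltp, 0.873 between Abca1 and Apoe and 0.864 between Abca1 and Pltp, while for Nr1h3 it was -0.17 with Abca1, -0.141 with Apoe and -0.416 with Pltp. These points share library number, depth and scaling. Marker sums of other cells were also uneven by number: neutrophil markers were 25822 in WT M-CSF library 1, against 5378 and 8254 in the other WT M-CSF libraries, and 19353 in p110g-/- M-CSF library 1, against 7588 and 9371. Library 1 was also highest in IL-4, at 6658 in p110g-/- and 16803 in WT libraries, against at most 4073 and 3716 in the others. In IFNg/LPS it was not: the sums were 1277, 987.2 and 1833 in p110g-/- libraries 1 to 3 and 2405, 2056 and 3075 in WT libraries 1 to 3, while Abca1, Apoe and Pltp were lowest in library 1 there too. Among the neutrophil markers, S100a9 and S100a8 reached 13716 and 7802 over all libraries. Ltf, Mpo, Camp, Elane and Ly6g reached 3285, 1085, 285.1, 272.7 and 18.6. B cell markers were highest in library 1 of all 6 groups, from 76.7 to 435.7, against at most 77.0 in the others. The part of these cells in the lower values was not tested.

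**Figure D4:**
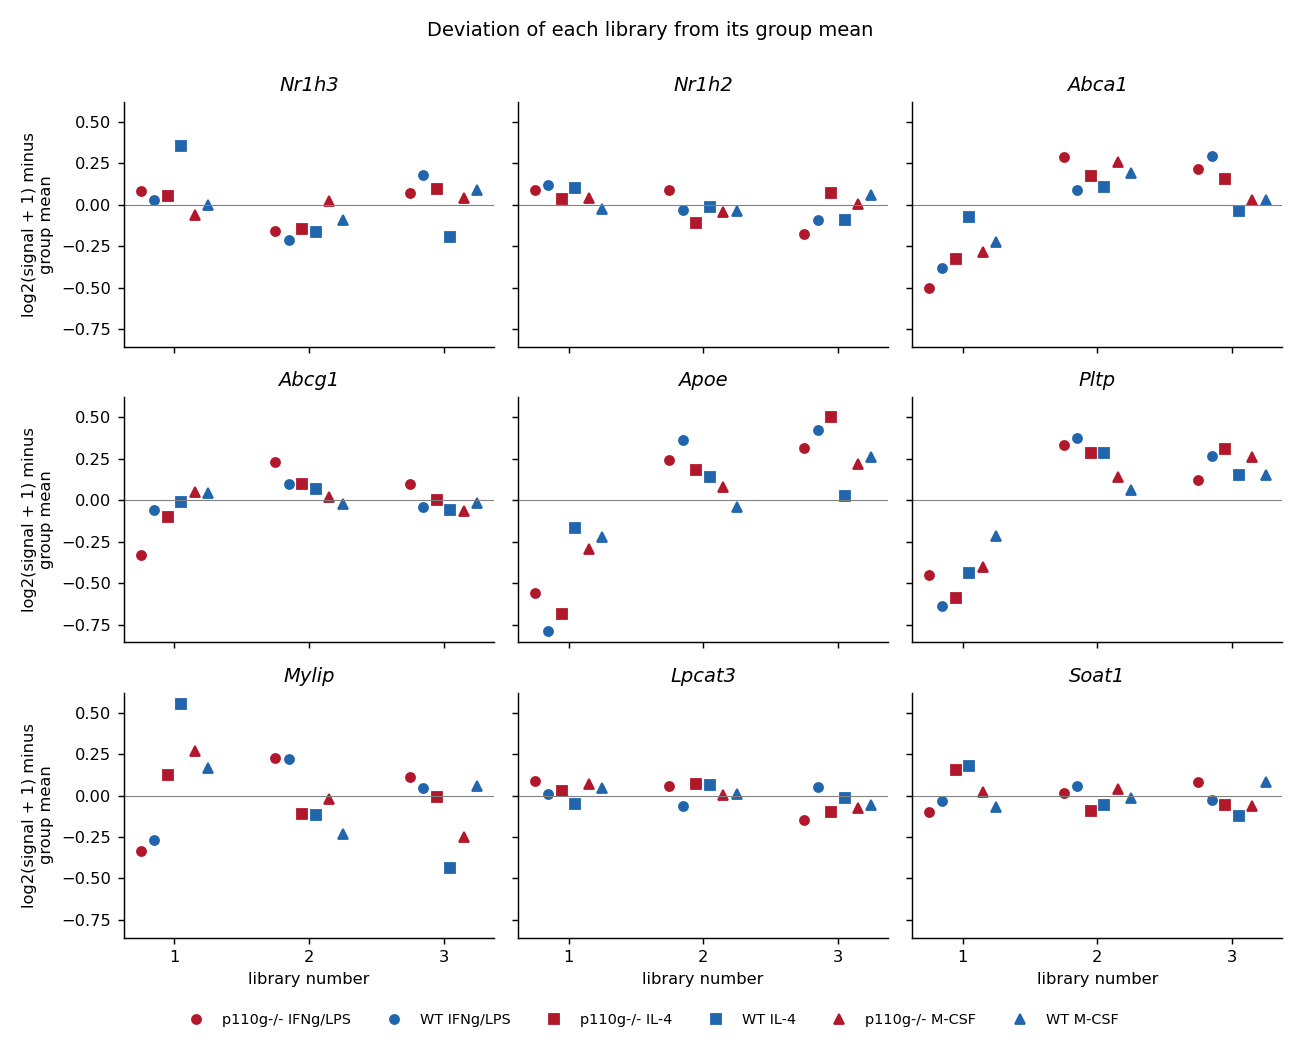
Difference of each library from its group mean in log2(signal + 1), by library number, for the 9 genes (red, p110g-/-; blue, WT; shapes, stimulus). Library 1 lies below 0 in all 6 groups for Abca1, Apoe and Pltp, and on either side of 0 for the other genes.

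Around the 9 genes, related genes that changed most steadily between genotypes were Nrip1 and Stard4. The lists were LXR partners and coregulators (11 of 12 tested), other LXR targets (14 of 15), oxysterol and desmosterol enzymes (7 of 9), genes of cholesterol uptake, hydrolysis and lysosomal export (15 of 15) and the SREBP pathway (6 tested). Rxrg was listed but too low to test, and Abcg4, Cyp7b1 and Cyp46a1 were not analysed here. Among the coregulators 1 gene rose in p110g-/- macrophages in M-CSF, 2 rose and 1 fell in IFNg/LPS, and 1 rose in IL-4. Of all genes, 6.94% were called higher and 7.79% lower in IFNg/LPS, 1.34% higher in IL-4, and 2.34% in either direction in M-CSF. Nrip1, a corepressor of nuclear receptors that is also known to work with LXR, was the gene that rose in all 3: by 0.68 in IFNg/LPS (adjusted p = 0.000335), 0.47 in IL-4 (adjusted p = 0.0139) and 0.57 in M-CSF (adjusted p = 0.0037). Its signal was 774.6, 982.4 and 766.9 in p110g-/- IFNg/LPS libraries, against 524.1, 510.7 and 527.5 in WT. Gps2, a subunit of the NCoR corepressor complex, fell by 0.62 in IFNg/LPS (adjusted p = 0.00434), and Rxrb, an RXR, rose by 0.26 (adjusted p = 0.0263). The list medians were 0.07 in IFNg/LPS, 0.09 in IL-4 and 0.03 in M-CSF, beside the medians over all genes given above.

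Of the 14 other LXR targets tested, 4 fell and 2 rose in p110g-/- macrophages under IFNg/LPS, where 7.79% of all genes were called lower and 6.94% higher. Cd5l, a secreted protein of the scavenger receptor family, was 1722, 2095 and 2542 in p110g-/- libraries, against 6169.6, 5415 and 6080.2 in WT, and it fell by 1.49 on the log2 scale (SE 0.24, adjusted p = 0.000795). Apoc2, the activator of lipoprotein lipase, fell by 1.30 (SE 0.24, adjusted p = 0.00189), and Lpl, lipoprotein lipase itself, fell by 1.21 (SE 0.25, adjusted p = 0.00518). Apoc1 also passed, but its p110g-/- signal of 2.3, 0.9 and 7.8, against 11.8, 15.9 and 20.5 in WT, is near the 2.85 to 3.49 that 3 reads give in those libraries, so no fold is given. Srebf1 (0.34, adjusted p = 0.0299) and Fads2 (1.46, adjusted p = 0.0204) rose, and both were named after their values were seen. Fads2 was low, at 18.6, 38.9 and 33.1 in p110g-/- libraries, against 10.3, 8.4 and 11.1 in WT. In those WT libraries 3 reads give 2.8 to 4.74, so the Fads2 fold rests on low counts. In IL-4, Lpl was the 1 gene of the list called, at 275469, 195831 and 167259 in p110g-/- libraries, against 421159, 428149 and 432609.6 in WT, and it fell by 1.04 on the log2 scale (adjusted p = 0.0358). In M-CSF limma called 0 of the 14, with 3 at an unadjusted p under 0.05, and edgeR and DESeq2 called 0. Among all genes, limma called 1.34% higher and 1.99% lower in IL-4, and 2.34% in either direction in M-CSF. The list median was 0.14 in IFNg/LPS, -0.25 in IL-4 and 0.00 in M-CSF (0.00036).

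Stard4, a carrier of sterol between membranes, showed the largest genotype difference of the uptake and export list in IFNg/LPS. There its signal was 536.2, 510.7 and 582.7 in p110g-/- libraries, against 113.7, 108.3 and 107.4 in WT, a rise of 2.29 on the log2 scale (SE 0.15, adjusted p = 8.91e-08). It also rose by 1.01 in M-CSF (adjusted p = 0.000935) and by 0.60 in IL-4 (adjusted p = 0.039), and it was the 1 gene of the 5 lists with a called interaction with IFNg/LPS (1.29, SE 0.21, adjusted p = 0.0051). Soat2, the second cholesterol acyltransferase, fell by 0.60 in IFNg/LPS (adjusted p = 0.0254), and limma called none of the other 13 in IFNg/LPS. In that list 5 of the 15 had an unadjusted p under 0.05, and edgeR called 2 and DESeq2 3. Ebp, a sterol isomerase, fell by 0.24 in IFNg/LPS (adjusted p = 0.0203) as the 1 gene called of the 7 oxysterol and desmosterol enzymes. In IL-4 and in M-CSF limma, edgeR and DESeq2 called 0 of these 7, with 0 at an unadjusted p under 0.05. Of the 6 SREBP pathway genes limma, edgeR and DESeq2 called 0 between genotypes in each stimulus, and 2 in IFNg/LPS, 0 in IL-4 and 0 in M-CSF had an unadjusted p under 0.05. Beside these counts, limma called 6.94% of all genes higher and 7.79% lower in IFNg/LPS, and 1.34% and 1.99% in IL-4. In M-CSF it called 2.34% in either direction, and in the interaction with IFNg/LPS 1.02% higher and 1.42% lower. The counts of the uptake and enzyme lists in IFNg/LPS are near these shares, and nothing particular to the lists is read from them.

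**Figure D5:**
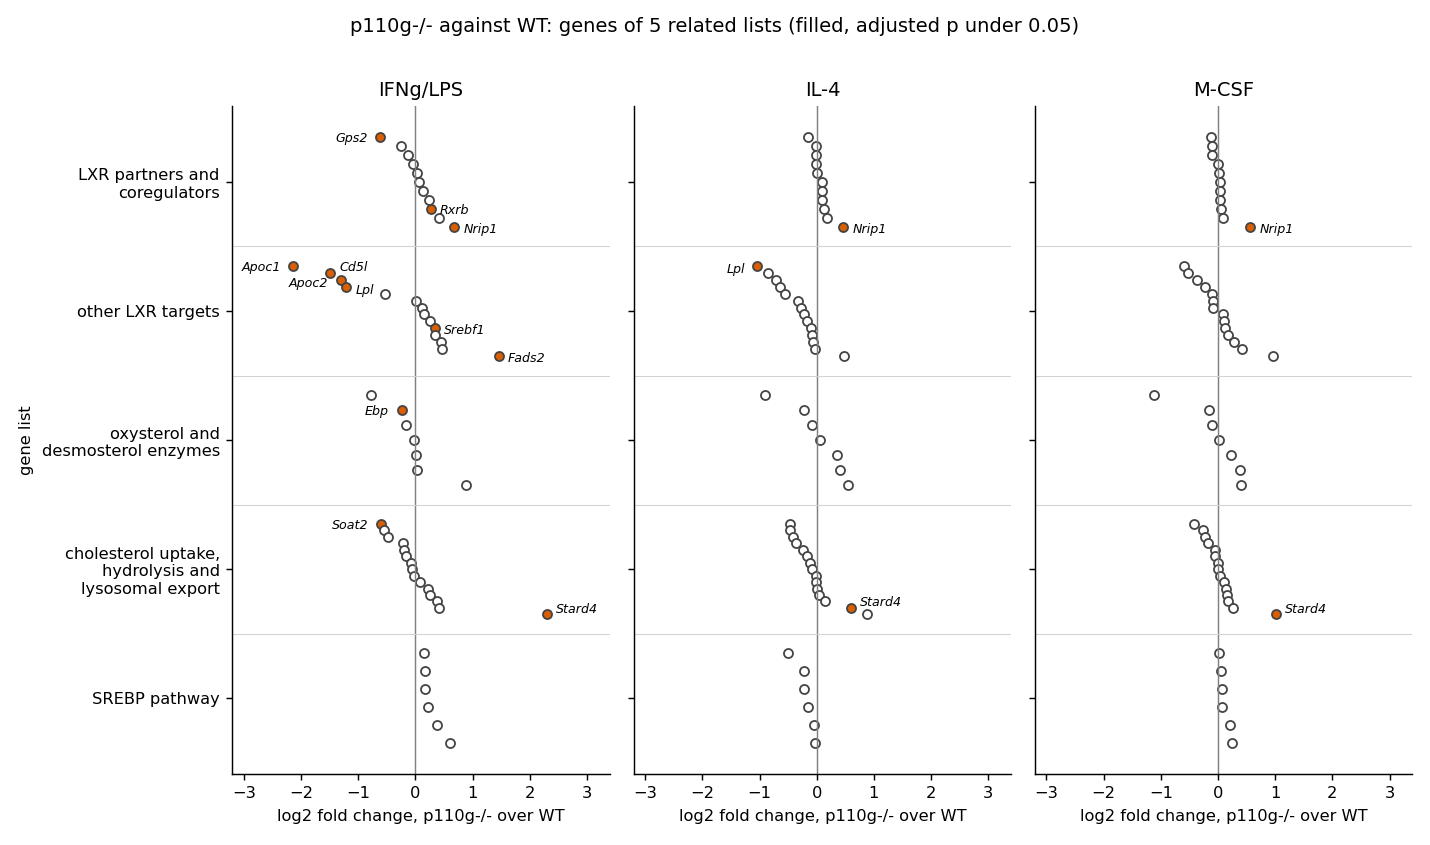
Log2 fold change of p110g-/- over WT in IFNg/LPS, IL-4 and M-CSF for the tested genes of 5 related lists, 1 point per gene, sorted within each list (filled and named, adjusted p under 0.05 in limma). Nrip1 and Stard4 are filled in all 3 panels, with Stard4 at 2.29, 0.60 and 1.01.

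With IFNg/LPS, Rxra, an RXR that pairs with LXR, fell by 1.73 in p110g-/- and fell by 1.49 in WT macrophages (adjusted p = 9.9e-09 and 5.63e-08), and Rxrb fell by 0.86 and fell by 1.08 (adjusted p = 4.27e-08 and 2.84e-09). Of the 11 LXR partners and coregulators tested, 7 rose and 4 fell in p110g-/-, and 5 rose and 4 fell in WT macrophages. Among those that rose, Nfkb1 changed by 1.15 in p110g-/- (adjusted p = 2.49e-06) and Ncoa1 by 0.75 in WT macrophages (adjusted p = 5.08e-07). Enzymes that make LXR ligands changed in opposite directions. Ch25h, cholesterol 25-hydroxylase, rose to 890.9, 365.4 and 657.8 in p110g-/- IFNg/LPS libraries, against 6.9, 5.5 and 3.8 with M-CSF, and to 1828, 779.6 and 767.5 in WT IFNg/LPS libraries, against 12.3, 7.0 and 2.2. Some of the M-CSF values lie near the level of 3 reads (2.30 to 3.45), and the fitted log2 changes of 6.58 and 7.21 depend on the pseudocount (adjusted p = 2.13e-08 and 7.39e-09). Cyp27a1, sterol 27-hydroxylase, was 46.5, 78.8 and 57.5 in p110g-/- IFNg/LPS libraries, against 2986, 3401 and 2682 with M-CSF, and fell by 5.64 on the log2 scale (adjusted p = 5.41e-12). In WT macrophages Cyp27a1 fell by 5.74 (adjusted p = 4.47e-12). Of the 14 other LXR targets tested, 11 fell and 2 rose with IFNg/LPS in p110g-/- macrophages and 10 fell and 0 rose in WT macrophages. Of all genes, IFNg/LPS lowered 36.8% and raised 36.2% in p110g-/- and lowered 37.5% and raised 36.3% in WT macrophages. Fasn, fatty acid synthase, fell by 2.51 in p110g-/- and fell by 2.85 in WT macrophages (adjusted p = 1.14e-09 and 2.63e-10), and Elovl5, a fatty acid elongase, fell by 1.60 and fell by 1.55 (adjusted p = 2.59e-10 and 3.67e-10).

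With IL-4 the same list split, with 5 genes higher and 5 lower in p110g-/- and 7 higher and 5 lower in WT macrophages. Of all genes, IL-4 raised 22.7% and lowered 21.2% in p110g-/- and raised 22.9% and lowered 21.1% in WT macrophages. Scd2 and Scd1, the stearoyl-CoA desaturases, rose by 2.28 and 2.59 in p110g-/- and by 2.83 and 3.07 in WT macrophages. Apoc2 fell by 2.68 in p110g-/- macrophages and Cd5l and Apoc2 each fell by 2.78 in WT macrophages; the log2 fold change of Cd5l in p110g-/- macrophages was -3.115. All of these had adjusted p under 0.05 in limma, the largest being 3.31e-05 for Scd1 in p110g-/- macrophages. Of the 6 SREBP genes, set against the same shares of all genes, 4 rose and 1 fell in p110g-/- and 5 rose and 1 fell in WT macrophages, with Insig1, which holds SREBP in the endoplasmic reticulum, up by 0.82 and 1.08.

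By likeness over the 18 libraries, each member was set beside the 3 genes with the highest Pearson r of log2 signal among genes with a mean of at least 50. Nr1h2 was most like Lrp10 (r = 0.996), Ppp6r1 (0.993) and Hilpda (0.991), and Nr1h3 was most like Laptm4a (0.947), Col4a2 (0.941) and Arnt (0.939). Pltp was most like Frmd4b (0.973), Apoe like Zcchc24 (0.971), Abca1 like Lfng (0.96), Abcg1 like Mettl7a1 (0.98), Mylip like Rsph9 (0.968), Soat1 like Wsb2 (0.968) and Lpcat3 like Acat2 (0.975). The highest of all genes was lower for Nr1h3 than for the other 8 members. Among the members, r over the 18 libraries was highest between Abcg1 and Lpcat3 (0.91) and between Abca1 and Apoe (0.89), and lowest between Nr1h2 and Pltp (-0.932). These values rest on 6 groups and on shared scaling, and most of their spread is between stimuli.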

How the data were processed

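The deposited table holds 1 signal per gene and library, made by the authors, and the submitters' processing notes name CASAVA 1.8.2, Bowtie2, DESeq and the mm9 build; the roles of these tools, the annotation and the handling of strand are not given in the sources used here. Within each library, 100.0% of the deposited signal values were whole multiples of 1 factor, with a tolerance of 0.1 in signal. Each value is therefore a whole number of reads times a factor per library, and the reads and depth (40081565 to 69602665) were recovered from them. Depth therefore adds little error for these genes, and 3 reads correspond to a signal of 2.15 to 4.74.

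A gene entered the tests if its signal reached 10 in 3 or more libraries (15627 of 16474). limma 3.58.1 in R 4.3.3 was fitted to log2(signal + 1) of the 18 libraries together, with a mean for each of the 6 groups (12 residual df, trend and robust moderation), and p-values were adjusted by Benjamini-Hochberg over all tested genes of each of the 10 comparisons. Fold changes are on the log2(signal + 1) scale, and adjusted p-values without another tool named come from this fit. Interactions compare the genotype difference under a stimulus with that in M-CSF. Alternatives were a pseudocount of 10, no filter, TMM scaling, quantile normalization, no trend or robust moderation, a fit of the compared groups alone, the library number as a block, edgeR 4.0.16 and DESeq2 1.42.0 on the recovered reads, and leaving out each library. The main limma fit was tested on simulated counts for the genotype difference in IFNg/LPS only, without an effect of library number. The other fits were not tested in this way.

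The number pairs libraries where all 3 correlations of their deviations from the group means exceeded 0.1. This held for genotype in IFNg/LPS (0.546, 0.34 and 0.256), IFNg/LPS in WT (0.256, 0.191 and 0.162), IL-4 in p110g-/- (0.397, 0.248 and 0.187) and IL-4 in WT (0.458, 0.347 and 0.179).

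All 9 members were named, with up to 4 called genes of each of 5 related lists per comparison (those of smallest adjusted p) and the 3 genes most like each member. The members and lists were chosen with earlier results of these data known. Figures were drawn with matplotlib 3.10.9. Promoter windows were read from a RefSeq table of GRCm38.p6, which is not the build of the deposited table, so no coordinates of the table were used. Some items of the lists and searches are not reported here.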

Additional observations from a re-analysis of the deposited data

Results flagged for a closer look

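Nr1h3 drew attention because the genotype difference was not the same in IFNg/LPS as in M-CSF, by a test of that difference itself. The interaction was -0.81 on the log2 scale (SE 0.18, adjusted p = 0.0318 in limma). The p110g-/- minus WT difference was -0.46 in IFNg/LPS and 0.35 in M-CSF, and the ranges of the genotypes did not overlap in either. The adjusted p is above 0.05 when any 1 of 7 libraries is left out, as given with the values above.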

How the results depend on the processing

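Of 90 member values (9 genes in 10 comparisons), 27 were called, and 21 were called under every setting. All 21 were responses to a stimulus, and no genotype difference or interaction was among them. Of the 90, 43 were called under none, and 18 of those changed sign in at least 1 setting. Of 800 alternative values, 744 kept their direction and side of the threshold, 22 lost the call, 34 gained one and 0 reversed a called direction. A fit of the compared groups alone called 1 member between genotypes in M-CSF (0 before), 0 in IFNg/LPS (2 before) and 0 in IL-4 (1 before). Quantile normalization called 1 in IFNg/LPS and 0 in the interaction with IFNg/LPS (1 before), which was also 0 without trend and robust moderation (Nr1h3, adjusted p = 0.052). DESeq2 called 2 in that interaction, Nr1h3 and Pltp (Pltp adjusted p = 0.0495). With the library number as a replicate block, 2 members were called in IL-4, 1 with the stimuli averaged and 2 in the interaction with IFNg/LPS, each count gaining Pltp (adjusted p = 0.0134, 0.00547 and 0.00159), and Nr1h3 rose with IFNg/LPS in p110g-/- macrophages (adjusted p = 0.0338). Apart from these and the block values given in the report, the block changed no other call. It does not pair the libraries for genotype in M-CSF (correlations 0.467, 0.361 and 0.0546), genotype in IL-4 (0.432, 0.297 and 0.053) or IFNg/LPS in p110g-/- (0.169, 0.163 and 0.0284), where the samples share a number. Leaving out libraries gave 1 to 3 members called in IFNg/LPS, 0 to 4 in IL-4, 0 to 2 with the stimuli averaged, 0 to 3 in the interaction with IFNg/LPS and 0 to 1 in that with IL-4. The highest count came without replicate 1 in every group in IL-4 (4), the average (2), the interaction with IFNg/LPS (3) and that with IL-4 (1). Leaving these libraries out also called more of all 15627 genes tested. In IL-4 it called 979 higher and 1306 lower (209 and 311 before), and with the stimuli averaged 1590 and 1947 (827 and 1019 before). In the interaction with IFNg/LPS it called 755 higher and 953 lower (159 and 222 before), and in that with IL-4, 131 and 254 (0 and 0 before). Nothing particular to the members is read from these gains. The cause of these changes was not tested. Depth limits little here, since each member had at least 962 reads in every library, whereas 3 libraries a group limit the precision of every difference.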
